A study of Homo sapiens with 10 samples.

Results

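The sites described here are 839 genomic positions at which the coactivator MAML3 was called in retinoic acid treated neuroblastoma cells, was not called in untreated cells, and had no peak of the receptor RARα in either treatment. They were chosen from the peak lists of a chromatin immunoprecipitation and sequencing (ChIP-seq) study of the long-established neuroblastoma line SK-N-SH, of human origin. Cells were moved to charcoal-stripped serum 24 hours ahead of treatment and then received either 1 µM retinoic acid (RA) or vehicle (UT, untreated), for a time that the labels leave out. Each of the 2 antibodies, against MAML3 or against RARα, was used on 2 libraries per treatment, which gave 8 deposited lists in 4 groups. Nothing in the labels tells whether replicates came from different cultures, and their spread may be technical. The source names call the cells of every group control cells, without saying what they are a control for, and name no transgene or deletion.

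Peaks of the 8 lists (hg19) were joined into sites wherever they shared at least 1 bp. This gave 10581 sites, of which 10251 held a MAML3 peak. A MAML3 site was called gained when both RA lists and neither untreated list held it. The gained sites numbered 961, or 9.37% of all MAML3 sites, and this percentage is the background against which the members must be read. The members are the 839 gained sites that no RARα list held, which is 87.3% of the gained sites (95% Wilson interval 85.1 to 89.3, counting error only) and 8.18% of all MAML3 sites. Lack of RARα was common, however: 8510 of all 10251 MAML3 sites (83.0%) had no RARα peak. Presence in these same lists chose the members, so their presence, their ranks and the calls around them are given as descriptions with no test. The smallest two-sided p that 2 against 2 libraries allow in an exact permutation test is 0.33.

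MAML3 is a mastermind-like protein. Mastermind-like proteins are best known as coactivators that join the Notch intracellular domain on the DNA-binding protein RBPJ, and they do not bind a DNA sequence by themselves. RARα is a nuclear receptor that binds DNA as a partner of RXR receptors, usually at repeated hexamers, and exchanges corepressors for coactivators when retinoic acid binds it. Retinoic acid slows the growth of many neuroblastoma lines and drives them toward a more neuronal form. A gained MAML3 site without RARα is therefore a place where the coactivator was called after the ligand while the receptor itself was not. The antibody detects protein crosslinked at or near a position, and a missing peak is not a measurement of no binding.

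The 8 lists were of very unequal length. The MAML3 lists held 2222 and 6759 peaks in untreated cells and 7532 and 6230 after RA. The RARα lists held 1321 and 251 peaks in untreated cells and 1103 and 1064 after RA. Read depth is unknown for all 8 libraries. The names of the 2 untreated MAML3 lists carry the same index with different lane tags, so these may be 1 library rather than 2. A member is thus a site missing from 1 long and 1 short untreated MAML3 list and from 4 RARα lists that were each shorter than any MAML3 list.

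Most members were low in both RA lists. Each deposited peak carries a score from the authors, with a floor near 70 in every list. In RA replicate 1 the members scored from 70.1 to 3100 with a median of 116, and in RA replicate 2 from 70.1 to 3100 with a median of 109. Expressed as a percentile within its own list, the median member stood at 37.9 in replicate 1 and 34.8 in replicate 2. In 496 of the 839 members (59.1%) both peaks were in the lower 50% of their lists, and in 119 (14.2%) both were in the upper 50%. A score of at least 200 in both lists was reached by 41 members (4.89%), and of at least 300 by 10.

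The 122 gained sites that did carry RARα stood higher in the same 2 lists. Their median score was 188 in RA replicate 1 and 215 in RA replicate 2, and 47 of them (38.5%) reached 200 in both. Their RARα peaks came from RA replicate 1 in 73 cases, RA replicate 2 in 81, untreated replicate 1 in 38 and untreated replicate 2 in 5. At 11 of them RARα was called only in untreated replicate 1. A further comparison is the 2603 sites that both RA lists and at least 1 untreated MAML3 list held and that also lacked RARα, called shared sites without RARα below. Their median scores were 190 and 149, again above those of the members in both lists.

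**Figure D1:**
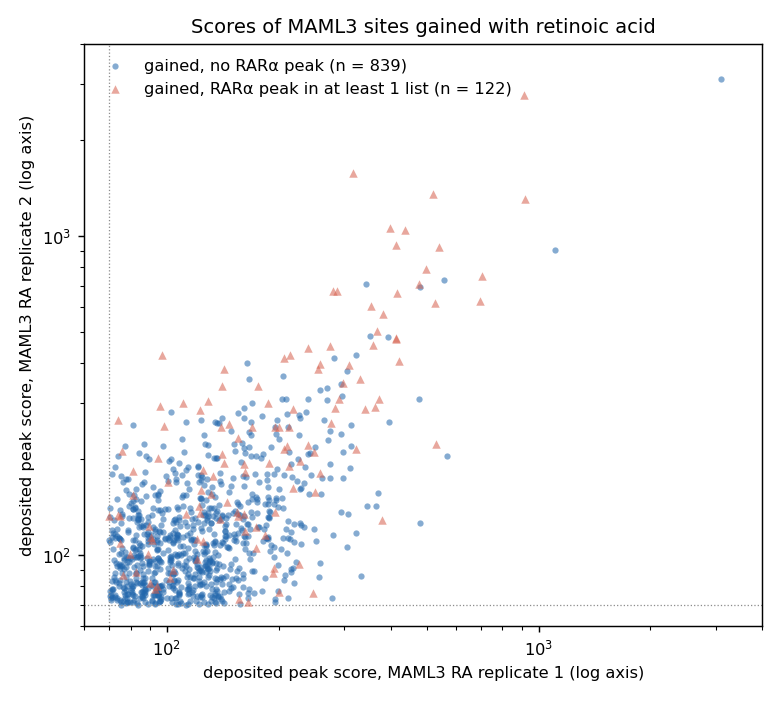
Deposited peak score of each gained MAML3 site in RA replicate 1 (horizontal, log axis) and RA replicate 2 (vertical, log axis), for the 839 members (circles) and the 122 gained sites with RARα (triangles); dotted lines mark a score of 70. The members crowd toward the floor of both lists, with medians of 116 and 109, against 188 and 215 for the triangles. The highest point plotted, at 3100 on both axes, is a member.

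The share of sites without RARα fell steeply with MAML3 rank, and it did so for gained and shared sites alike. The 4947 sites held by both RA lists were divided into 4 rank groups of nearly equal size by their mean score percentile, from group 1 (lowest) to group 4 (highest). Group 1 held 502 members, group 2 held 238, group 3 held 88 and group 4 held 11. In group 1, 95.4% of gained sites lacked RARα, against 90.4% of the sites that an untreated list also held. The values in group 2 were 87.8% and 83.5%. They were 71.0% and 71.2% in group 3, and 27.5% (11 of 40, Wilson interval 16.1 to 42.8) and 30.2% (361 of 1197, interval 27.6 to 32.8) in group 4. The counting intervals of the 2 kinds of site overlapped in groups 2, 3 and 4. Only in group 1 were they apart, at 93.3 to 96.9 for gained sites and 88.0 to 92.4 for the others. Over all ranks the share without RARα was 87.3% for gained and 65.3% for shared sites, and 59.8% of the members lay in rank group 1. Among all sites with a MAML3 peak in any list, the share without RARα was 83.0%.

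**Figure D2:**
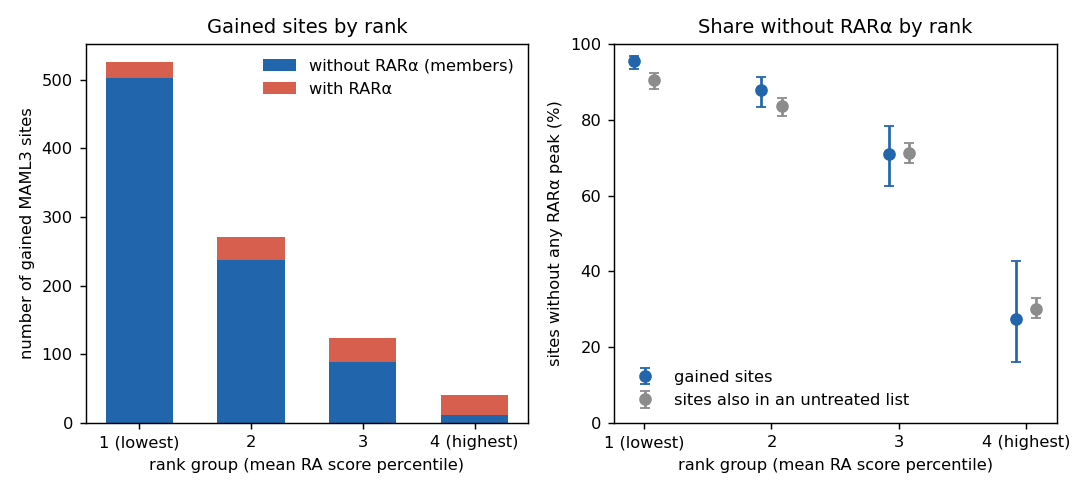
Left, number of gained MAML3 sites in each of the 4 rank groups of mean RA score percentile, divided into members and gained sites with RARα. Right, percentage of sites without any RARα peak in each rank group, for gained sites and for sites that an untreated list also held, with 95% Wilson intervals (counting error only); they fall from 95.4 and 90.4% in rank group 1 to 27.5 and 30.2% in rank group 4.

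The rule joins the peaks of both RA lists by overlap, so their closeness at a member is given only as a description. Every member consisted of 1 peak from each RA list and nothing else. The shorter of the 2 peaks was covered by the longer one over a median of 97.1% of its length, and the midpoints lay a median of 42 bp apart. The midpoints were within 100 bp of each other at 711 members (84.7%), compared with 2350 of the 2602 shared sites without RARα that had a single peak in each RA list (90.3%) and 112 of 122 gained sites with RARα (91.8%). The members had the lowest of these shares. The merged member was a median of 400 bp wide. The peaks of the members were multiples of 50 bp wide in both RA lists.

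The lists leave out some of their own peak numbers, and this bears on what a missing peak means. Peak numbers rise along each list, so a site between listed peaks with consecutive numbers can hide no unlisted peak. For both untreated MAML3 lists together this was the case at 695 of the 839 members (82.8%). It was the case at 559 members (66.6%) for both RARα RA lists and at 348 (41.5%) for all 4 RARα lists. At the remaining members an unlisted peak could lie anywhere between the flanking listed ones. Taken over all 6 lists from which a member must be missing, 310 members (36.9%) had no such gap.

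The rule turns on an overlap of 1 bp, and a few members lay close to it. The nearest members to an untreated peak were chr3:31774940-31775289, at 4 bp, chr2:228374832-228375181, at 5 bp, and chr20:50312710-50313190, at 30 bp. Within 200 bp there were only these 3, and within 1 kb there were 23. The members nearest to a RARα peak were chr7:1626046-1626350, at 346 bp, chr1:61786350-61786649, at 640 bp, and chr10:43552842-43553279, at 792 bp, and 5 members in all had one within 1 kb. On the other side of the rule, the gained site chr11:116376113-116376574 was left out by a RARα overlap of 31 bp, chr18:65014723-65015222 by 68 bp and chr12:124203760-124204432 by 74 bp. The median RARα overlap of the gained sites left out was 250 bp, and the first of these was the only one under 50 bp. The shortest untreated overlap that left a site out was 31 bp, at a site on chromosome 8 whose position is not given here. After it, chr7:4019600-4020250 was left out by 33 bp and chr2:176719382-176719781 by 50 bp.

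The highest ranked member, chr11:83574363-83574662, scored 3100 in both RA replicates. The highest score was also exactly 3100 in RA replicate 2 and in each of the 4 RARα lists, and 3205 in RA replicate 1. No source used here says whether 3100 is a set upper value, so the equal scores are not read as equal signal. The untreated and RARα lists had no peak on it. However, a peak of MAML3 untreated replicate 1 with a score of 749 began 819 bp away, at chr11:83575482-83576081, and a RARα peak of RA replicate 1 with a score of 320.5 began 973 bp away. The RA peaks were only 200 and 300 bp wide. The member ranked next, chr17:55700301-55700718, scored 1107 and 904 in the 2 RA lists and lay 259 bp from a peak of 150 bp in MAML3 untreated replicate 1, which scored 194. Both of the highest ranked members therefore adjoined an untreated call, and neither counted as a member when peaks within 1 kb of each other were joined.

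The next 4 members by rank began with chr11:30750713-30751262. Its scores were 558 in RA replicate 1 and 727 in RA replicate 2, the nearest untreated MAML3 peak was 86044 bp away and the nearest RARα peak 131773 bp away. At chr2:232034232-232034781 the scores were 479 and 693, with an untreated peak at 4272 bp and the nearest RARα peak at 2690289 bp. At chr6:137187956-137188568 they were 344 and 710, and the nearest untreated MAML3 and RARα peaks lay 101406 and 101500 bp away, both in untreated replicate 1. The member chr6:69183519-69184355 scored 394 and 483.5 and was the farthest of the 12 highest ranked from an untreated MAML3 peak, at 398773 bp, with 1110563 bp to the nearest RARα peak. These 4 sites scored higher in RA replicate 2 than in RA replicate 1, and their distance to both kinds of call ranged widely. The higher score in RA replicate 2 does not set them apart. It held for all members described next except chr4:80004262-80004899.

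The remaining members of the 12 highest ranked lay within 100 kb of both an untreated MAML3 peak and a RARα peak. On chromosome 18, chr18:57239373-57239922 scored 353 and 487, with an untreated peak 2491 bp away and a RARα peak of RA replicate 1 at 15412 bp. On chromosome 4, chr4:80004262-80004899 scored 476 and 308, with a RARα peak of RA replicate 2 at 18846 bp, and chr4:119632200-119632799 scored 324 and 424. The member chr2:178479382-178479968 scored 306 and 377, and chr5:59629899-59630448 scored 282 and 415. On chromosome 13, chr13:36039401-36039847 scored 294 and 344 and lay 484 bp from a peak of MAML3 untreated replicate 2 that scored 125. For 5 of these 6 sites the nearest RARα peak was in an RA list, 15412 to 83780 bp away, and for chr4:119632200-119632799 it was in untreated replicate 1 at 39826 bp.

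Away from the sites themselves, members had fewer untreated MAML3 peaks around them than the shared sites without RARα had. An untreated MAML3 peak lay within 100 kb of 483 members (57.6%), against 1831 of 2603 shared sites without RARα (70.3%). The median distance to one was 73033 bp for members and 34863 bp for the shared sites. By list, the share of members with a MAML3 peak that close outside the site was 27.4% for untreated replicate 1, 57.3% for untreated replicate 2, 66.5% for RA replicate 1 and 60.2% for RA replicate 2. For the shared sites the same counts were 1037, 1823, 1883 and 1736 of 2603, so the members had the lower share in all 4 lists, by more in the untreated than in the RA lists. Within the rank groups the members had 54.8% against 63.2% in group 1, 59.2% against 68.2% in group 2, 65.9% against 73.3% in group 3, and 9 of 11 against 294 of 361 in group 4. The difference was thus smaller at matched rank than over all sites, and was 0.378 percentage points the other way in group 4, which has 11 members.

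RARα was found near, though not on, many members. A RARα peak of either RA list lay within 100 kb of 238 members (28.4%) and of 740 shared sites without RARα (28.4%). This likeness was over all ranks, did not hold at matched rank (below) and depended on the lists used. Members minus shared sites, the difference was 5.35 percentage points with lists of equal length. It was -4.06 without MAML3 untreated replicate 2 and -3.58 without MAML3 RA replicate 2. A RARα peak of either untreated list was that close to 178 members (21.2%) and to 706 shared sites (27.1%). In the single lists the members' share was 20.1% for untreated replicate 1, 4.17% for untreated replicate 2, 22.1% for RA replicate 1 and 21.9% for RA replicate 2. The corresponding counts for the shared sites were 689 (26.5%), 91 (3.50%), 536 (20.6%) and 598 of 2603. The sets lay within 2 percentage points of each other in the other 3 lists than untreated replicate 1. The lower untreated share was seen in replicate 1, the longer untreated RARα list. Without that library 4.12% of members and 3.53% of shared sites had an untreated RARα peak within 100 kb. The list then left has only 251 peaks and could hardly show so large a difference. With the RARα lists cut to equal length the untreated shares were 7.15% for members and 8.53% for shared sites. List length and replicate cannot be told apart here. At matched rank, a RARα peak of an RA list was near 23.7% of members and 22.6% of shared sites in group 1, 32.4% and 27.3% in group 2, 39.8% and 28.5% in group 3, and 7 of 11 and 149 of 361 in group 4. The share rose with rank in both sets.

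**Figure D3:**
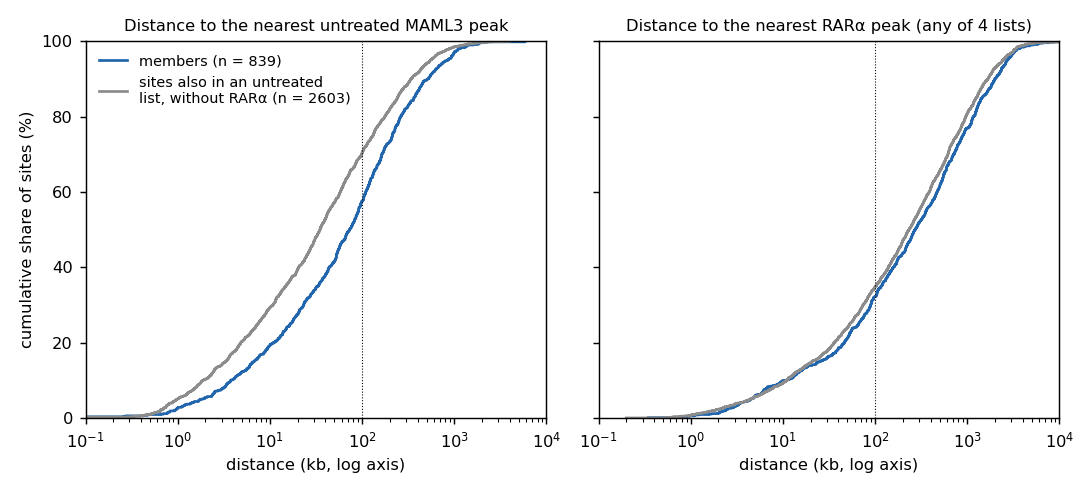
Cumulative share of sites against the distance to the nearest untreated MAML3 peak (left) and the nearest RARα peak of any list (right), on a log axis in kb, for the 839 members and the 2603 shared sites without RARα; the dotted line is at 100 kb. The curve of the members lies below that of the shared sites for untreated MAML3 peaks (57.6% against 70.3% at 100 kb), and the curves nearly coincide for RARα (32.3% against 34.8%). The sets are not matched for rank here.

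Combining the 2 distances divided the members into 4 classes. Neither an untreated MAML3 peak nor any RARα peak lay within 100 kb of 342 members (40.8%). Both lay that close to 257 members (30.6%), and an untreated MAML3 peak without RARα to 226 (26.9%). Only 14 members (1.67%) had a RARα peak within 100 kb and no untreated MAML3 peak. Of the 271 members with RARα within 100 kb, 94.8% (257) also had an untreated MAML3 peak that close, and the share was 97.1% (881 of 907) for the shared sites without RARα, so this is no feature of the members alone.

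With the full lists, members had another gained site within 100 kb more often than the shared sites without RARα had. Another gained site, with or without RARα, was within 100 kb of 202 members (24.1%) and of 401 of the 2603 shared sites without RARα (15.4%). The share was higher for members in each rank group. It was 20.7% against 10.9% in group 1, 27.3% against 13.8% in group 2, 31.8% against 17.9% in group 3, and 5 of 11 against 78 of 361 in group 4. A gained site with RARα was within 100 kb of 43 members (5.13%) and of 57 shared sites without RARα (2.19%). This order depended on 2 libraries. Without MAML3 untreated replicate 2 the shares near another gained site were 45.8% for members and 48.3% for shared sites, and without MAML3 RA replicate 2 they differed by 1.09 percentage points.

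Most members nevertheless stood alone. With gaps of less than 100 kb allowed, 653 members (of 839) formed no run with another member, 71 runs held 2 members, 9 runs held 3, and 4 runs held 4 or more. These last were mapped list by list. Each member brings 1 peak to each RA list and none to an untreated list. At least 4 peaks in each RA list, and part of any excess over untreated cells, were therefore fixed by choosing these runs. The run with the most members, 5, spanned chr14:54687984-54770533. The MAML3 lists held 0 and 2 peaks there in untreated cells and 8 and 9 after RA, and 1 RARα peak was called, in RA replicate 2, on a gained site between the members. Its highest ranked members were neighbours, chr14:54770006-54770533 with scores of 272 and 230 and chr14:54766284-54766833 with 216 and 193.

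On chromosome 6 the run chr6:21741056-21851305 had no untreated peak of either antibody. After RA, MAML3 had 4 and 5 peaks in it, and its 4 members scored between 78.8 and 190 in RA replicate 1 and between 104 and 178 in RA replicate 2. A single RARα peak, in RA replicate 1, lay 3299 bp from the nearest member. On chromosome 13 the run chr13:36039401-36102750 held 4 members, 0 and 2 untreated MAML3 peaks, 5 and 7 MAML3 peaks after RA, and no RARα peak in any list. Its members differed widely in score between the replicates, for example 71.1 and 114 at chr13:36044751-36045150 and 204 and 105 at chr13:36102348-36102750.

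The run on chromosome 18, chr18:57120673-57271122, was the one with most RARα around it. Its 4 members lay among 2 gained sites that carried RARα and 3 sites that an untreated list also held. The MAML3 lists held 1 and 4 peaks there in untreated cells and 9 and 13 after RA, and the RARα lists 0 and 0 in untreated cells and 4 and 3 after RA. The members lay between 5938 and 46712 bp from the nearest RARα peak. Of the 4 runs, those on chromosomes 6 and 13 thus held 1 and 0 RARα peaks, and the one on chromosome 18 held members among RARα sites of the RA lists.

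**Figure D4:**
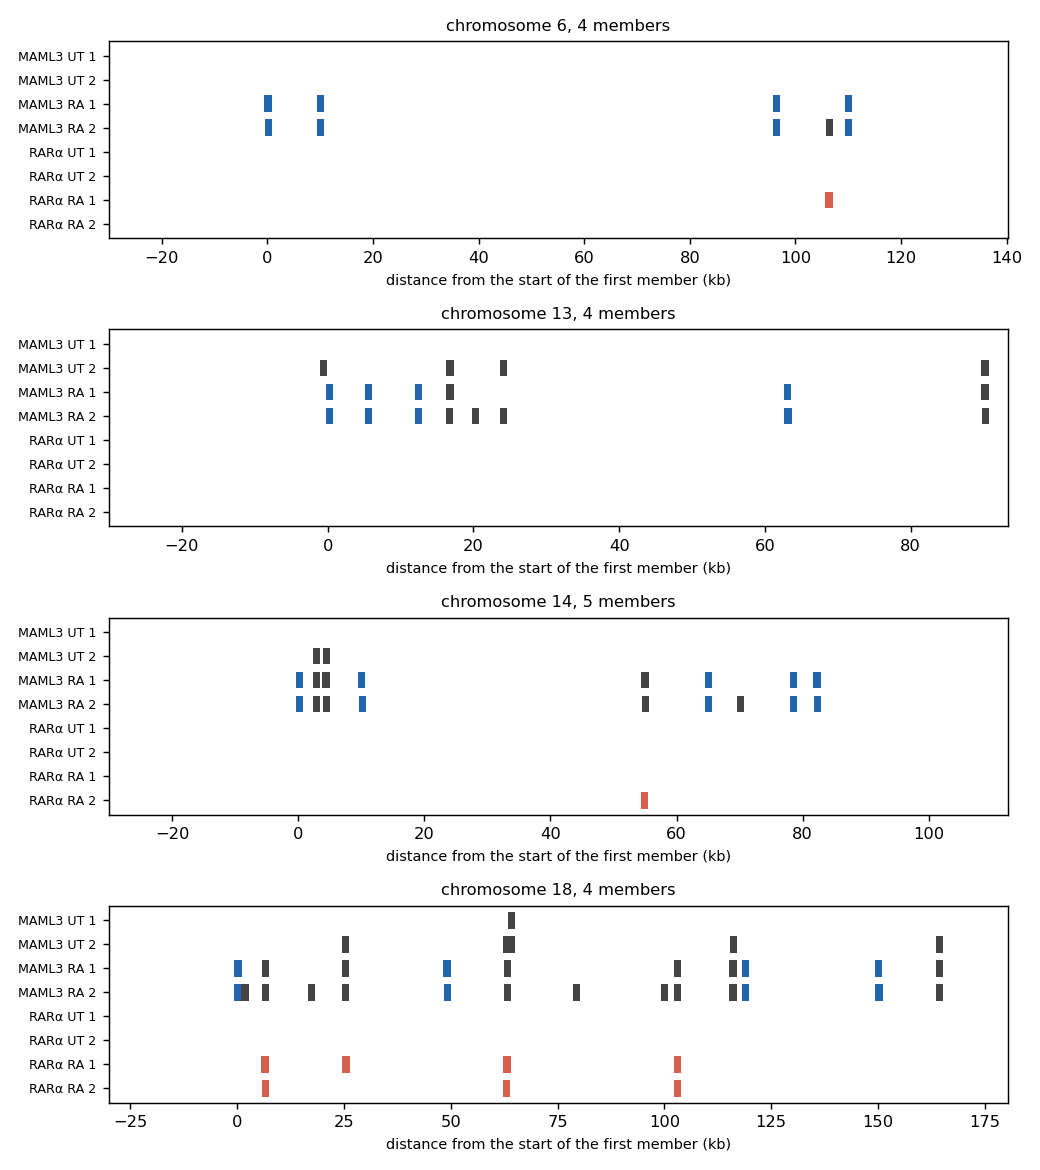
Peaks of the 8 lists over the 4 runs of at least 4 members, against the distance in kb from the start of the first member; blue marks are members, dark marks other MAML3 peaks and red marks RARα peaks, and narrow peaks are widened so that they can be seen. The untreated MAML3 rows hold 0 to 4 peaks within a run, against 4 to 13 in the RA rows, and RARα is densest in the chromosome 18 run. The members' own peaks count in the RA rows only, so at least 4 peaks there were fixed by the choice of runs.

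Members occurred on every chromosome but Y, at uneven shares. Chromosome 2 held the most, 106, which was 11.0% of its 962 MAML3 sites (Wilson interval 9.19 to 13.2), against 8.18% over the genome. Chromosome 18 had 28 of 247 (11.3%, interval 7.96 to 15.9) and chromosome X 20 of 179 (11.2%, interval 7.35 to 16.6). Among chromosomes with members, the lowest shares were on chromosome 19, with 2 of 55 (3.64%), chromosome 17, with 10 of 268 (3.73%, interval 2.04 to 6.73), chromosome 12, with 24 of 453 (5.30%, interval 3.59 to 7.76), and chromosome 7, with 40 of 718 (5.57%, interval 4.12 to 7.50). The intervals of chromosomes 2, 7, 12 and 17 did not include the share over the genome. They cover counting error only and were not corrected for the number of chromosomes looked at, and members in 1 run are not independent.

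The members are themselves part of both MAML3 RA lists, so the chromosome shares of those lists were counted with and without them. Chromosome 2 held 7.92 and 8.83% of the untreated MAML3 peaks and 9.56 and 9.25% of those after RA, and 7.04 and 3.59% of the untreated RARα peaks and 8.34 and 8.27% after RA. Without the members' own peaks the MAML3 RA lists had 9.17 and 8.72% there, and replicate 2 was then below the 8.83% of untreated replicate 2. No peak was taken from the untreated lists. Removing the members, frequent on chromosome 2, had to lower the RA shares there, so this order is not a result. The RARα lists hold no member, and each RA list had a larger share there than both untreated lists. No interval was computed for these shares, and the 3.59% comes from a list of only 251 peaks. On chromosome 7 the MAML3 lists had 7.97 and 7.86% in untreated cells and 7.0 and 6.6% after RA (7.28 and 6.92% without the members), while the RARα lists overlapped, with 7.95 and 7.17% against 7.98 and 6.86%.

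**Figure D5:**
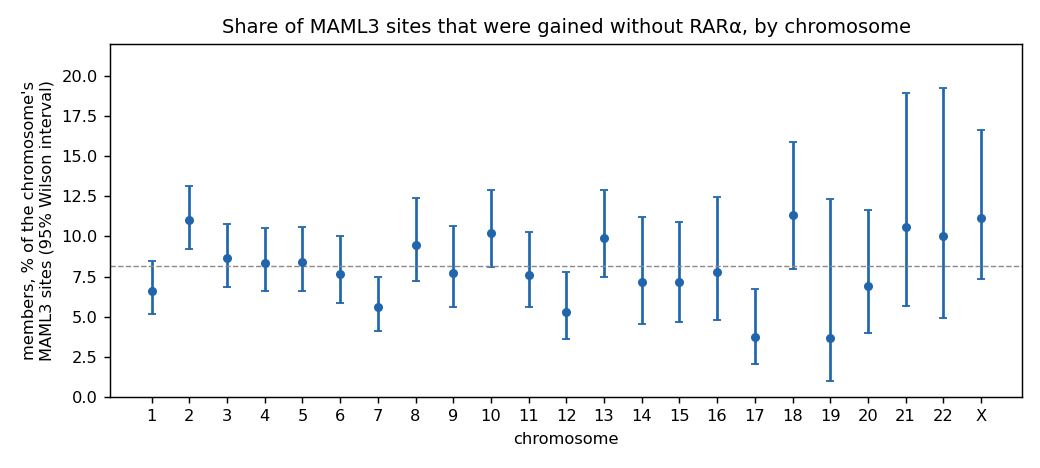
Members as a percentage of all MAML3 sites of each chromosome, with 95% Wilson intervals (counting error only); the dashed line is the share over the genome, 8.18%. Chromosome 2 lies above the line and chromosomes 7, 12 and 17 below it by more than their intervals, and the small chromosomes have wide intervals. The intervals were not corrected for the number of chromosomes.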

How the data were processed

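Reads were aligned and peaks called by the authors. Tools listed in the submitters' processing notes are bedtools, MACS and BWA 0.5.9, with hg19 as the build and no role for each. No source used here gives the caller's threshold or how the inputs were used. Each of 8 lists gives position, peak name and 1 score that the authors deposited. It was used only to rank peaks within a list, as the percentage of peaks with a score at or below a peak's own. The list names mention filtering and intersection, which no label explains. RARα untreated replicate 2 has "merged" in its name, and both untreated MAML3 lists carry the same index with different lane tags, so they may be 1 library. Input samples were not analysed here.

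Sites, members and distances (bp between edges) were computed in Python 3.11.15 with numpy 2.4.6 and scipy 1.17.1, tested on simulated lists and against bedtools 2.31.1. Wilson intervals are 95%. The members, comparison sets and named sites were chosen with earlier results of these data known. Named are the 12 highest ranked members, 3 on each side of each limit of the rule (1 of them, on chromosome 8, without its position) and all runs of at least 4 members. Read depth, and so the precision it gives, is unknown. No hg19 sequence or gene annotation was used here, so the planned sequence content, gene distances and gene lists were not run, and no gene is named. Alternatives were stricter and looser overlap, the upper 50% of each list, lists of equal length and each library left out.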

Additional observations from a re-analysis of the deposited data

How the results depend on the processing

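The number of members (839), their share of gained sites, their rank and their spacing were recomputed under each alternative. A 50% overlap gave 822 members, of which 819 sites were the same, and joining peaks within 1 kb gave 824, with 812 the same. The upper 50% of each list gave 410 members and lists of equal length (2222 MAML3 and 251 RARα peaks) gave 227. Only 119 and 31 of the 839 were among these, and 721 had no peak left in either MAML3 RA list of equal length. In the upper 50% and the equal lists, 10.2 and 7.99% of MAML3 sites were gained, and 81.7 and 78.5% of gained sites lacked RARα. In both cases 16.3% of members lay within 100 kb of another member. The median percentile, still counted in the full lists, was 66.7 and 78.5. Shortening removes the peaks of low percentile, so this rise was fixed in advance and says nothing about rank. The first 2 settings moved none of these beyond its interval or spread. Within 50 or 500 kb, 14.1 and 47.7% of members had another member, against 22.2% within 100 kb.

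Leaving out a library relaxes the rule and can only add sites. It gave 839 to 2660 members, 9.37 to 35.7% of MAML3 sites gained, 83.1 to 94.1% of gained sites without RARα, 21.7 to 41.4% of members near another, and a median percentile of 24.8 to 45.5. The count moved by over 1.5 times without MAML3 UT replicate 2 (2660), RA replicate 1 (1697) or RA replicate 2 (2379).

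Settings for the neighbour comparisons were chosen after seeing the data. Members minus shared sites without RARα, the share near another gained site differed by 8.67 percentage points, by -2.58 to 8.65 with a library left out (-2.58 without MAML3 UT replicate 2), and by 9.81, 13.6, 13.9 and 23.8 from rank group 1 to 4. For an untreated MAML3 peak the difference was -12.8, with -15.1 to -12.5 when a library was left out and -8.46, -8.91, -7.36 and 0.378 in rank groups 1 to 4. For an untreated RARα peak the difference of -5.91 became -1.76 in the upper 50%, 0.345 with equal lists and -1.38 with only the RARα lists shortened. From rank group 1 to 4 it was -3.97, -2.89, 1.30 and -6.80. With a library left out it ranged from -9.25 (without MAML3 UT replicate 2) to 0.587 (without RARα UT replicate 1). For a RARα peak of an RA list the difference of -0.0616 became 4.34 in the upper 50%, 5.35 with equal lists, 1.75 with only the RARα lists shortened, and 1.12, 5.09, 11.3 and 22.4 in rank groups 1 to 4, and ranged from -4.06 (without MAML3 UT replicate 2) to 1.34 (without RARα RA replicate 2) with a library left out. The cause of these changes was not tested. No paired analysis was possible because no result here comes from a test: a member is defined by all 8 lists together and has no count per library. A comparison of per-list values across libraries was not run.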

Other observations

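Counted in windows of 5 Mb, the members occupied 386 windows, and 169 of these held 1 member. The windows given here were chosen after their values were seen, and each member adds 1 peak to each MAML3 RA list and none to an untreated list. The most members in a window, 9, lay on chromosome 13 between 105000001 and 110000000, among 42 MAML3 sites, with 4 and 21 untreated MAML3 peaks and 35 and 29 after RA. The members there were of modest score, from 70.3 to 175 in RA replicate 1. A window on chromosome 11, between 30000001 and 35000000, held 7 members among only 17 MAML3 sites, with 0 and 6 untreated MAML3 peaks, 12 and 15 after RA, 1 and 0 untreated RARα peaks and 4 and 2 after RA. It contains the third highest ranked member and, close to it, the member chr11:30745813-30746266 with scores of 226 and 275. A window on chromosome 3, between 75000001 and 80000000, held 7 members among 23 MAML3 sites, with 0 and 10 untreated and 20 and 12 RA peaks of MAML3, and no RARα peak in any of the 4 lists.

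When every list was shortened to equal length, 25 members remained under this and all other settings of overlap and score tried, libraries left out aside. They are led by chr11:30750713-30751262, chr2:232034232-232034781, chr6:137187956-137188568, chr6:69183519-69184355 and chr18:57239373-57239922. Shortening can remove a member only by dropping its own RA peaks. The high rank of those that remained was therefore fixed in advance.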
